A study of Bos taurus with 24 samples.

Results

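The RNF and TRIM genes of bovine oocytes are described here, across the germinal vesicle (GV) stage, the metaphase II (MII) stage, spring and summer. Members were chosen by symbol alone, as every entry of the expression table whose symbol starts with RNF or TRIM followed by a digit, without RNF148. The rule itself used no measured value, though it was set with earlier results of these data known. It gave 96 of the 11306 entries of the table, of which 61 were RNF and 35 TRIM entries. These carried 95 symbols, since RNF167 is listed at 2 loci, which were kept as 2 entries. Oocytes came from Bos taurus cows, crossbred and Angus-based, adult, neither lactating nor pregnant. Per the methods, a library was made from 4 oocytes of 1 cow, stripped of cumulus cells, either as GV oocytes after follicle aspiration or as MII oocytes after maturation in vitro. Collection in May stood for spring and in July for summer, which gave 4 groups of 6 libraries: spring GV, summer GV, spring MII and summer MII. No group was heated or treated apart from this: season is the month of collection, which cannot be told apart from anything else that differed between May and July, and the MII stage was reached in culture. The labels speak of lysed individual cells where the methods speak of pools, and no label ties libraries to cows. By the methods the same cows, fewer than the libraries, were aspirated in both seasons.

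RING finger proteins are mostly ubiquitin ligases: the RING fold binds an E2 enzyme that carries ubiquitin and brings it to the target protein. The symbol RNF names genes only for that fold, so the group mixes chromatin enzymes, membrane ligases of the endoplasmic reticulum and endosomes, subunits of cullin ligases, and ligases of the RING-between-RING type. Most TRIM proteins, though not all, share a RING, a B-box and a coiled coil ahead of a variable end, and many are known from innate immunity and from the silencing of genes. An oocyte matures without making new transcripts, on mRNA stored during growth. In that state a change in measured mRNA can follow from decay or from a change in the poly(A) tail, because the tail decides what is captured by oligo(dT). Protein degradation through ubiquitin also drives the passage from prophase to metaphase.

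Values are FPKM, fragments corrected for gene length and for the size of the library, so that levels of different genes are per length. The lowest value in the table is 0.01 and stands for 0. Of the members, 85 were over 0.1 FPKM in at least 1 library and were tested among 9526 such genes, and 11 were not: RNF24, RNF32, RNF122, RNF125, RNF157, RNF175, RNF180, TRIM9, TRIM54, TRIM55 and TRIM67. Depth is known only relative to spring GV 1, from the steps between low values, and ran from 0.0567 in spring GV 6 and 0.149 in spring MII 6 to 6.54 in summer GV 5. Spring GV 6, summer GV 2 and spring MII 6 stood apart: they correlated least with the median of their own group over all genes (r = 0.822, 0.878 and 0.891, against at least 0.934 elsewhere), and are also the 3 with the lowest share of mapped reads in the study. For the changes from GV to MII, counts of members called and passing the adjusted threshold are given with and without them, as are sums over the members. For season, the counts at an unadjusted p under 0.05 are. Counts by role, and over the listed RING finger genes and the E1 and E2 enzymes, include them. All 12 oocyte markers in the table, among them GDF9, ZP2 and ZAR1, were above the lowest value in every library. The summed cumulus and granulosa cell markers ranged from 21.8 to 111 FPKM in spring GV, 22.2 to 73.2 in summer GV, 18.5 to 52.0 in spring MII and 13.3 to 54.5 in summer MII, mostly STAR. Of these 16 markers, 4 (HAS2, PTGS2, STAR and VCAN) were above the lowest value in every library, and FSHR was at it in 21. Within these 4 the stages differed in both directions. HAS2 had medians of 0.277 and 0.351 FPKM in spring and summer GV, and 1.45 and 1.77 in spring and summer MII. PTGS2 rose likewise, from 1.21 and 1.19 to 2.59 and 2.93 FPKM. STAR was lower in MII (24.5 and 20.2 to 16.3 and 14.8 FPKM). VCAN was near level in spring and lower in summer (0.103 and 0.0811 to 0.101 and 0.0598 FPKM). Of the other markers, CYP11A1 (1.44 and 1.26 to 0.01 and 0.504 FPKM), GREM1 (0.362 and 0.639 to 0.155 and 0.0498 FPKM) and INHA had lower medians in MII in both seasons. So had AMH, CD44 and CYP19A1. PTX3 and TNFAIP6 had higher ones, and INHBA, FST and HSD3B1 differed by season. The 6 leukocyte markers summed to 0.792 to 3.14 FPKM in GV libraries and 0.244 to 1.07 in MII libraries, with CD3E, CSF1R and SPI1 above the lowest value in every library and PTPRC at it in 17. Of the 6 theca and stromal markers none was above it everywhere, and COL1A1 was at it in 19. Spring GV 3 stood apart in the cumulus and granulosa sum (111 FPKM, against at most 73.2 elsewhere) and in the theca and stromal sum (12.9 FPKM, against at most 0.93). The part of other cell types in the results was not tested.

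The share of members at each level was close to that of all entries. The mean over all libraries was at least 1 FPKM for 32 members and at least 10 FPKM for 8, which is 33.3% and 8.33% of them, against 32.4% and 8.57% of all entries. RNF entries had a median of the mean of 0.318 FPKM and TRIM entries of 0.14 FPKM. The 10 members with the highest mean were RNF167 at its chromosome 4 entry (26.0 FPKM), RNF181 (23.6 FPKM), TRIM77 (17.2 FPKM), RNF114 (17.0 FPKM), RNF34 (15.2 FPKM), RNF113A (15.0 FPKM), TRIM59 (10.8 FPKM), RNF126 (10.2 FPKM), TRIM28 (8.69 FPKM) and RNF25 (6.55 FPKM). RNF113A is a splicing-associated protein, RNF126 a ligase of cytosolic quality control, and TRIM28 the corepressor that zinc finger proteins recruit to imprinted genes and retroelements. Neighbours in this order were not separated beyond their spread, as every one of the 10 overlapped the next between libraries.

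**Figure D1:**
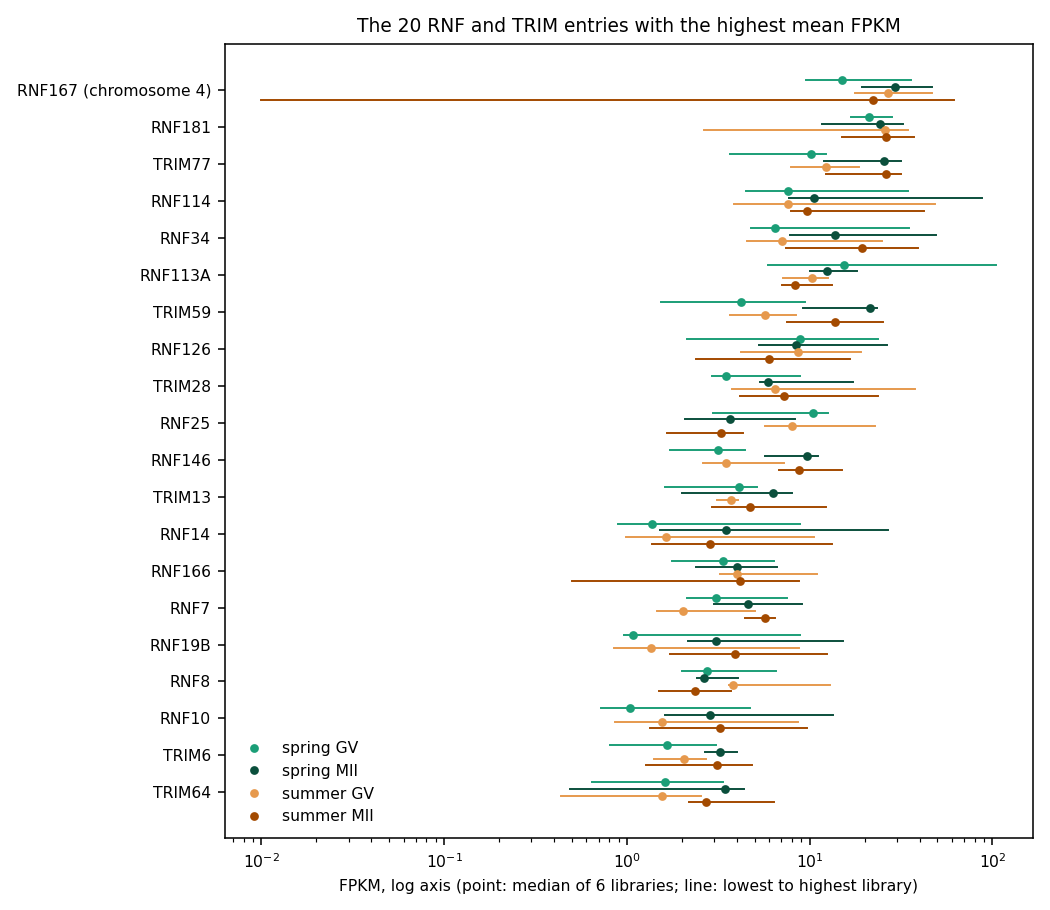
FPKM on a log axis of the 20 entries with the highest mean, with the median of 6 libraries as a point and the lowest to highest library as a line, 1 colour per group. Both MII medians lie to the right of both GV medians in TRIM77, TRIM59, RNF34, RNF146, RNF114, TRIM13, RNF14, RNF7, RNF19B, RNF10, TRIM6 and TRIM64. They lie to the left in RNF25, RNF126 and RNF8. The chromosome 4 entry of RNF167 falls to 0.01 in 1 summer MII library.

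RNF181 is a small cytosolic ligase. Its values ran over 16.9, 21.1 and 28.2 FPKM in spring GV oocytes (lowest, median and highest library), 11.7, 24.2 and 32.2 in spring MII, 2.63, 25.9 and 34.4 in summer GV, and 15.1, 26.2 and 37.4 in summer MII. Its groups overlapped throughout, and its lowest values were those of summer GV 2 and spring MII 6. RNF114, a ligase of immune signalling, had medians between 7.62 and 10.6 FPKM in the 4 groups, with libraries far above them: spring GV 6 at 34.5 FPKM, summer GV 2 at 48.3, spring MII 6 at 87.3 and spring MII 3 at 24.3, and summer MII 6 at 42.1 and summer MII 4 at 31.7. RNF113A reached 105 FPKM in spring GV 6, where the other 5 spring GV libraries were between 5.95 and 18.7 FPKM. The means of RNF114 and RNF113A therefore lean on these libraries.

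The same 4 libraries carried the highest sums over all members. The sum was 102, 166 and 360 FPKM in spring GV oocytes (lowest, median and highest library), 145, 173 and 349 in summer GV, 212, 229 and 413 in spring MII, and 177, 223 and 352 in summer MII. The mean share of the table's total was 0.215%, 0.231%, 0.3% and 0.274% in the same order. Both MII medians lay above both GV medians, and the groups overlapped. Without spring GV 6, summer GV 2 and spring MII 6 the mean sum was 152 ± 37.6 FPKM in spring GV (SD, n = 5), 170.5 ± 18.4 in summer GV (n = 5), 229.5 ± 19.1 in spring MII (n = 5) and 238 ± 60.8 in summer MII (n = 6), where with them it was 186, 200.3, 260.1 and 238. The order of the MII means thus turned with 1 library. Spring GV 6 was the highest library of its group for 40 of the 85 tested members (47.1%, against 44.4% of all genes tested), summer GV 2 for 52 (61.2%, against 52.8%), spring MII 6 for 40 (47.1%, against 41%) and summer MII 6 for 32 (37.6%, against 33.2%). For 14 members (16.5%, against 14.2% of all genes) these 4 libraries were the highest in all 4 groups at once, among them RNF10, RNF34, RNF114, RNF19B, RNF214 and TRIM32. The part of depth in these values was not tested.

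**Figure D2:**
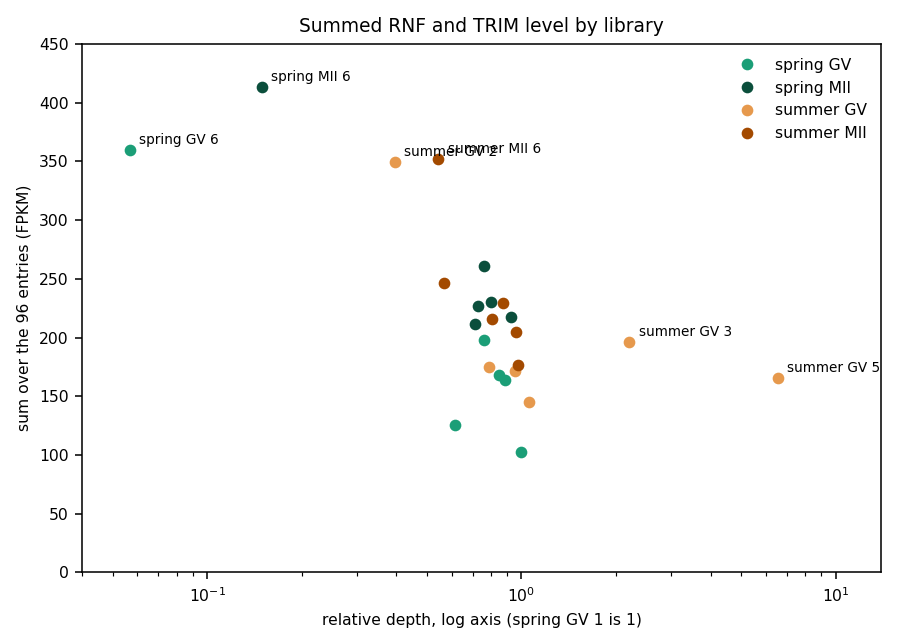
Sum of FPKM over the 96 entries in each of the 24 libraries against relative depth on a log axis, with colours for the 4 groups. Spring GV 6, summer GV 2, spring MII 6 and summer MII 6 have the highest sums (349 to 413 FPKM) and relative depths of 0.0567 to 0.543, while the 2 libraries with the highest estimated depth, summer GV 5 and summer GV 3, have sums of 165 and 196 FPKM.

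The first question was which members differ between GV and MII oocytes. In spring, RNF146, TRIM59, TRIM77 and RNF10 were higher in MII oocytes and no member was lower, at an unadjusted limma p under 0.05 and a fold change over 2 (9 were lower at an unadjusted p under 0.05 of any fold). These are 4.71% of the tested members, where 3.57% of all genes tested were called higher and 8.25% lower. In summer, RNF146, TRIM59, RNF7 and RNF34 were called higher (4.71% of members, against 2.2% of all genes) and RNF25 and RNF31 lower (2.35%, against 9.26%). RNF146 and TRIM59 were called in both seasons. At an adjusted p under 0.05 with no limit on fold, 10 members were higher in spring (11.8%, against 9.45% of all genes) and 5 lower (5.88%, against 14.7%), and 11 were higher in summer (12.9%, against 7.67%) and 9 lower (10.6%, against 23.1%). The median log2 change of the members was 0.03 in spring and 0.00 in summer, beside -0.03 and -0.02 over all genes. Among the 32 members with a mean of at least 1 FPKM it was 0.50 in spring and 0.40 in summer, beside 0.08 and -0.05 over the 3665 genes at that level. Calls were fewer than among those genes: 4 of the 32 in spring and 6 in summer, against 29.9% and 28.9%. All log2 changes here are differences in log2(FPKM + 1), a scale that understates the change of genes below about 1 FPKM.

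These counts moved with single libraries and with scaling. Without spring GV 6 the spring comparison gave 9 higher calls in place of 4, and 27 members passed the adjusted threshold in place of 15. All genes moved the same way: of 9526 tested, 1348 were called in place of 1126, and 3609 passed the adjusted threshold in place of 2304. Without spring GV 1 or without spring GV 3, 1 member was called lower, where 1147 and 1207 of all genes were called in either direction. Without spring GV 3, which stood apart in the markers of other cells, 4 members were called higher, and 11 higher and 6 lower members passed the adjusted threshold. Of all genes, 9.14% then passed as higher and 16% as lower. Without the 3 libraries that stood apart, 3 members were called higher and 0 lower in spring, 6 higher and 2 lower in summer, and 32 and 29 members passed the adjusted threshold. Of all genes tested, 3991 then passed it in spring in place of 2304, and 3742 in summer in place of 2929. Calls over all genes went from 1126 to 1228 in spring and from 1092 to 1195 in summer. In summer the higher calls went from 4 to 2 without any 1 of summer GV 1, 3, 5 and 6 and summer MII 1, 2 and 5. In these refits 1007 to 1142 of all genes were called in either direction, in place of 1092. Median-of-ratios scaling gave 3 higher and 2 lower calls in spring, where 1149 of all genes were called in place of 1126. Quantile normalization gave 7 higher and 0 lower in summer, where 1166 were called in place of 1092. With quantile normalization the adjusted threshold was passed by 22 higher and 4 lower members in spring and by 25 and 8 in summer. The shares of all genes were then 20.4% higher and 13.9% lower in spring, and 23.3% and 18.3% in summer.

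**Figure D3:**
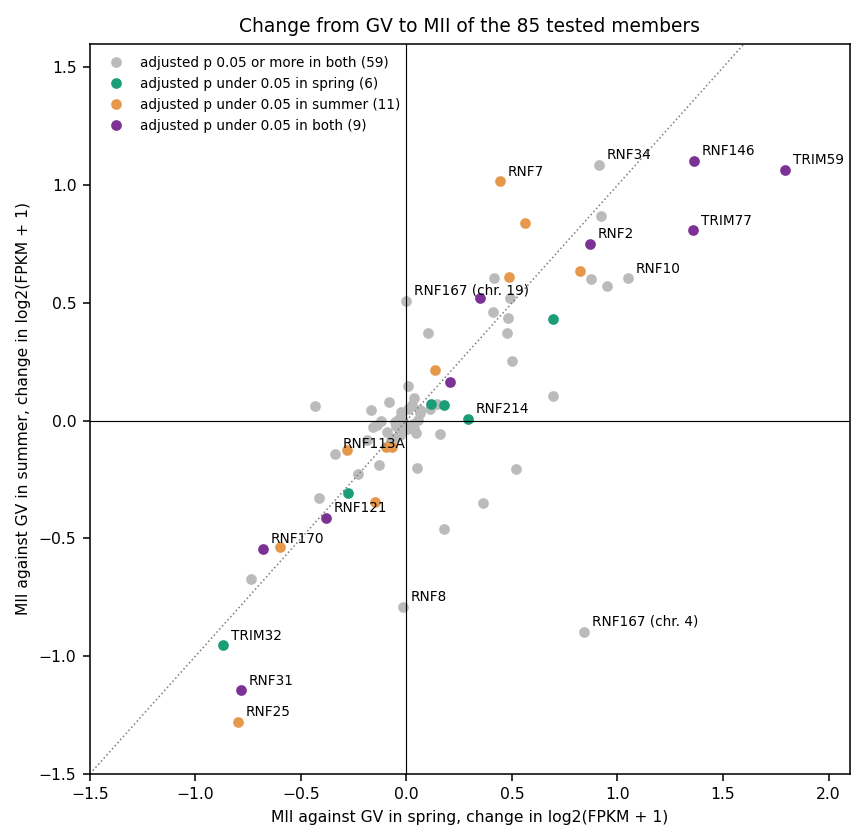
Change in log2(FPKM + 1) from GV to MII in spring (x) and in summer (y) for the 85 tested members, with colours for an adjusted limma p under 0.05 in spring, in summer or in both and a dotted line where both changes are equal. Most points lie near the dotted line; the chromosome 4 entry of RNF167 is far below it because of 1 summer MII library at 0.01.

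Among the members that rose, RNF146 came first. RNF146 binds poly(ADP-ribose) and marks axin and tankyrase for degradation, and it lies on chromosome 9, 24273355 to 24300612 on the minus strand of the assembly UMD3.1.1. Its values ran over 1.72, 3.16 and 4.45 FPKM in spring GV (lowest, median and highest library), 5.67, 9.60 and 11.1 in spring MII, 2.62, 3.47 and 7.23 in summer GV, and 6.78, 8.72 and 15.0 in summer MII. Every spring MII library was above every spring GV library, and in summer only summer GV 2 reached into the MII range. The log2 change was 1.36 (SE 0.24, limma adjusted p = 0.00173; exact permutation p = 0.00216) in spring and 1.10 (SE 0.23, adjusted p = 0.00302; exact permutation p = 0.00433) in summer. The exact test of 6 against 6 libraries, two-sided here and below, cannot go below p = 0.00216.

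TRIM59, a TRIM protein anchored in the endoplasmic reticulum (chromosome 1, 107879883 to 107892251, plus strand), changed most among the members in spring. Its values were 1.53, 4.21 and 9.46 FPKM in spring GV and 9.20, 21.3 and 23.5 in spring MII, then 3.67, 5.72 and 8.42 in summer GV and 7.5, 13.7 and 25.1 in summer MII. In spring MII 6 lay below the highest GV library, and in summer MII 4 lay below the highest pair of GV libraries, GV 1 and GV 5. The log2 change was 1.79 (SE 0.35, limma adjusted p = 0.00337) in spring and 1.06 (SE 0.28, adjusted p = 0.0121) in summer. TRIM13, the other TRIM gene with a membrane anchor in these lists, had log2 changes of 0.41 and 0.46, neither past the threshold (adjusted p = 0.350 and 0.187).

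TRIM77 and TRIM64 are neighbours on chromosome 29, at 5175376 to 5195894 and 5232246 to 5240316, 36352 bp apart on opposite strands. They are related genes, so reads may have been split between them, and the 2 values are uncertain to that extent. TRIM77 was at 3.67, 10.2 and 12.3 FPKM in spring GV and 11.9, 25.6 and 31.6 in spring MII, and at 7.89, 12.3 and 18.6 in summer GV and 12.2, 26.1 and 31.5 in summer MII. A single spring MII library, MII 6, fell among the GV values. Its log2 change was 1.36 (SE 0.30, limma adjusted p = 0.00674) in spring and 0.81 (SE 0.28, adjusted p = 0.0443) in summer. The summer value missed the adjusted threshold in 8 of the 12 fits without 1 library, with an adjusted p of up to 0.0944. TRIM64 changed by 0.56 in spring (adjusted p = 0.224) and by 0.84 in summer (SE 0.25, adjusted p = 0.0242), with group medians of 1.61, 3.43, 1.56 and 2.71 FPKM in spring GV, spring MII, summer GV and summer MII.

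RNF7, the RING subunit of cullin-5 ligases (chromosome 1, 128214458 to 128221734, minus strand), was called in summer. It was at 1.47, 2.03 and 5.03 FPKM in summer GV and 4.40, 5.67 and 6.44 in summer MII, and only summer GV 2 overlapped the MII range. The log2 change was 1.02 (SE 0.21, limma adjusted p = 0.00308). In spring its GV values of 2.13, 3.06 and 7.51 FPKM overlapped MII values of 2.98, 4.62 and 9.06, for a log2 change of 0.44 (SE 0.28, adjusted p = 0.254). The difference between the seasons was 0.57, with an unadjusted p over 0.05.

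RNF10, a ligase that acts on small ribosomal subunits, and RNF34, a ligase that binds caspases, had calls that did not pass the adjusted threshold. RNF10 was at 0.724, 1.04 and 4.73 FPKM in spring GV and 1.61, 2.86 and 13.4 in spring MII (log2 change 1.05, SE 0.41, limma adjusted p = 0.0752). RNF34 was at 4.56, 7.04 and 24.9 FPKM in summer GV and 7.42, 19.4 and 39.3 in summer MII (log2 change 1.09, SE 0.46, adjusted p = 0.0896). In both genes the highest values of all 4 groups were those of spring GV 6, spring MII 6, summer GV 2 and summer MII 6, and the groups overlapped. The unadjusted p of RNF34 was above 0.05 without any 1 of summer GV 1, 3, 5 and 6 and summer MII 4, 5 and 6, with log2 changes down to 0.88, while without summer GV 2 the change was 1.39.

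**Figure D4:**
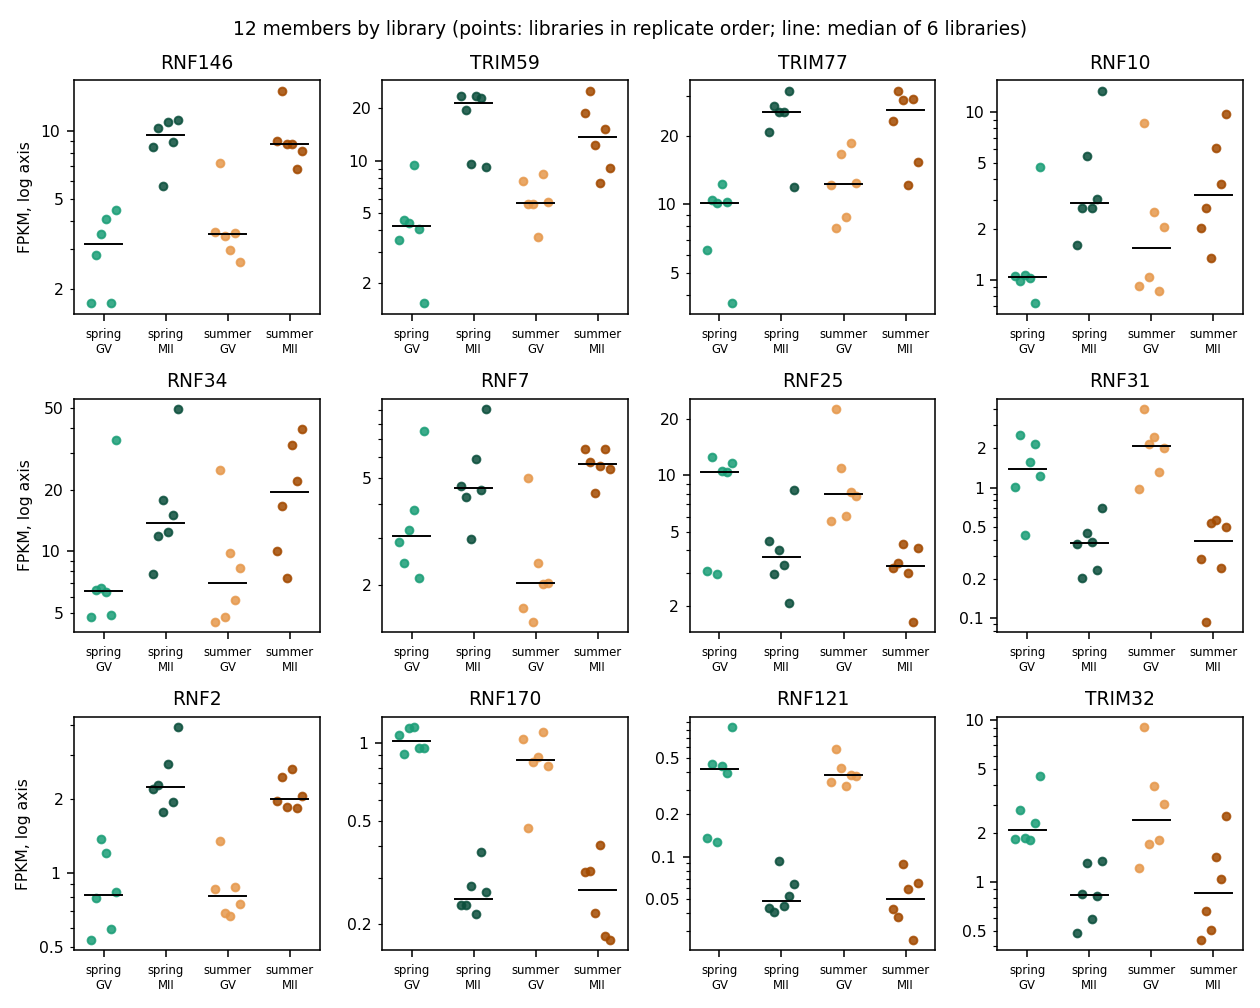
FPKM on a log axis of 12 members in every library, with 6 points per group in replicate order and a black line at the group median. In RNF2, RNF170 and RNF121 all MII libraries lie on 1 side of all GV libraries of the same season, while in RNF10 and RNF34 single high libraries spread the groups.

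Among the members that fell, RNF31 and RNF25 were called, in summer. RNF31 is HOIP, the catalytic subunit of the complex that builds linear ubiquitin chains (chromosome 10, 20826444 to 20837714, minus strand). It was at 0.969, 2.08 and 3.97 FPKM in summer GV and 0.0947, 0.392 and 0.567 in summer MII, with no overlap, a ratio of means of 5.78 (GV to MII) and a log2 change of -1.15 (SE 0.21, limma adjusted p = 0.00146). In spring it was at 0.431, 1.39 and 2.51 FPKM in GV and 0.202, 0.378 and 0.698 in MII, and fell by 0.79 on the log2 scale (SE 0.21, adjusted p = 0.0170), less than the fold limit.

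RNF25 is a ligase tied to stalled ribosomes and to NF-kB (chromosome 2, 107346299 to 107355559, minus strand). It was at 5.71, 7.99 and 22.7 FPKM in summer GV and 1.65, 3.29 and 4.29 in summer MII, again with no overlap (log2 change -1.28, SE 0.30, limma adjusted p = 0.00642). In spring GV it was at 3.09 and 2.97 FPKM in libraries 1 and 3 and at 10.4 to 12.6 in the other 4, against 2.08, 3.64 and 8.31 in spring MII. The spring change was -0.80 (SE 0.38, adjusted p = 0.140). Spring GV 1 and 3 were also the lowest of their group in RNF121, RNF126 and RNF113A.

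Members could pass the adjusted threshold at log2 changes under the fold limit, and those named next were chosen after their values were seen. RNF170 and RNF121 had means of 0.608 and 0.228 FPKM, and RNF2 and TRIM32 means of 1.59 and 1.995 FPKM. RNF2, the catalytic subunit of Polycomb repressive complex 1, rose in both seasons with no overlap: from 0.537, 0.816 and 1.37 to 1.76, 2.23 and 3.90 FPKM in spring, and from 0.671, 0.805 and 1.35 to 1.83, 2.01 and 2.64 FPKM in summer. Its log2 changes were 0.87 (SE 0.18, limma adjusted p = 0.00525) and 0.75 (SE 0.13, adjusted p = 0.00115), and the ratios of means (MII to GV) 2.78 and 2.46. RNF170, a ligase of the endoplasmic reticulum that removes activated inositol trisphosphate receptors, fell in both seasons with no overlap, from 0.910, 1.02 and 1.15 to 0.218, 0.250 and 0.380 FPKM in spring and from 0.468, 0.864 and 1.10 to 0.173, 0.269 and 0.405 in summer. Its log2 changes were -0.68 (SE 0.10, adjusted p = 0.000736) and -0.54 (SE 0.11, adjusted p = 0.00224).

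RNF121, a membrane ligase of the Golgi apparatus and endoplasmic reticulum, had the smallest adjusted p of all members. It fell from 0.128, 0.417 and 0.829 to 0.0408, 0.0490 and 0.0934 FPKM in spring and from 0.319, 0.379 and 0.582 to 0.0258, 0.0506 and 0.0895 in summer, with no overlap in either season. The ratios of means (GV to MII) were 7.01 and 7.58, where the log2 changes were -0.38 (limma adjusted p = 0.0159) and -0.41 (adjusted p = 4.62e-05). TRIM32, a TRIM protein with NHL repeats, fell in spring from 1.82, 2.09 and 4.55 to 0.483, 0.834 and 1.34 FPKM, and did not overlap (log2 change -0.87, adjusted p = 0.00915). In summer it was at 1.23, 2.42 and 9.02 FPKM in GV and 0.439, 0.856 and 2.56 in MII (log2 change -0.95, adjusted p = 0.0591).

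The other members past the adjusted threshold moved by at most 0.69 on the log2 scale. RNF13 and RNF130, membrane ligases with a protease-associated domain, rose in both seasons (ratios of means 2.40 and 3.27 for RNF13, 2.22 and 1.88 for RNF130). In spring RNF214, RNF216, TRIM33 and TRIM6 also rose and TRIM68 fell. In summer RNF103, RNF138 and RNF219, which RefSeq lists as OBI1, rose, and RNF123, RNF187 and TRIM25 fell. RNF151 and RNF183 were at the lowest value in all 12 MII libraries, while RNF151 was above it in 9 of 12 GV libraries (up to 0.201 FPKM) and RNF183 in 8 (up to 0.237 FPKM). Both passed the adjusted threshold in summer (adjusted p = 0.00441 and 0.0410), and no fold is given against groups listed at 0. Of the 35 passes counted over both seasons, 25 held without any 1 library and 10 were lost without 1 to 9 of the 12 libraries, always at an unadjusted p under 0.05. Other settings moved some further. There the largest unadjusted limma p was 0.247 for RNF123 and 0.0816 for TRIM77, both in summer. RNF219 in summer held without any 1 library but lost the adjusted threshold with all 4 groups in one fit.

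The comparisons of spring and of summer share no library. Over the 85 tested members the spring and summer log2 changes had Pearson's r = 0.781 and Spearman's rho = 0.738 (r = 0.928 over all genes tested), as a description across genes that share libraries within each season. The sign was the same in 69 members (81.2%, against 85.5% of all genes tested). Of the members past the adjusted threshold, 9 were shared: RNF2, RNF13, RNF130, RNF146, TRIM59 and TRIM77 rose and RNF31, RNF121 and RNF170 fell. That is 60% of the 15 in spring and 45% of the 20 in summer, against 74.4% and 58.6% of all genes past the threshold. All 15 and all 20 had the same sign in the other season, as did 2295 of 2304 and 2905 of 2929 of all genes. GV and MII libraries did not overlap in 10 members in spring and 7 in summer, or 11.8% and 8.24% of those tested, against 13.6% and 17.7% of all genes.

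By role, higher and lower members were found side by side. The counts below are at the adjusted threshold, which 9.45% of all genes passed as higher and 14.7% as lower in spring, and 7.67% and 23.1% in summer. Of 10 tested RNF ligases of chromatin and DNA damage, 2 rose in spring (RNF2 and RNF146) and 3 in summer (RNF2, RNF138 and RNF146), or 20% and 30%, and 0 fell. The median log2 change of this list was 0.42 in spring and 0.01 in summer. Of 17 membrane ligases, 2 rose and 2 fell in spring (RNF13 and RNF130, RNF121 and RNF170), and 3 rose and 3 fell in summer, with RNF103 and RNF183 added (11.8% each way in spring and 17.6% in summer), and the median was 0.01 and 0.05. Among 6 ligases of the RING-between-RING type, RNF216 rose and RNF31 fell in spring, and RNF31 fell in summer. Of 10 RNF ligases of NF-kB and innate immunity, 1 rose and 1 fell in spring (RNF216 and RNF31) and 0 rose and 2 fell in summer (RNF25 and RNF31).

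The TRIM lists were small, so that single genes set their shares. Of 8 antiviral TRIM genes, TRIM6 rose in spring and TRIM25, which activates the RNA sensor RIG-I, fell in summer (12.5% each time, beside 9.45% of all genes higher in spring and 23.1% lower in summer), with list medians of -0.06 and 0.02. Of the 2 tested genes of the TIF1 family, TRIM33 rose in spring by 0.12 on the log2 scale (adjusted p = 0.0137), and TRIM28 did not pass the threshold: its log2 change was 0.69 in spring (adjusted p = 0.168) and 0.10 in summer (adjusted p = 0.899). Of 3 tested TRIM genes with NHL repeats, TRIM32 fell in spring. The single COS box gene tested, TRIM36, had log2 changes of 0.42 and 0.61 without passing the adjusted threshold. Of 3 RNF genes of germ cells, RNF151, known from spermatids, fell in summer. In bulk pools, less RNA per oocyte and fewer oocytes that hold it cannot be told apart.

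The second question was whether season changed the members. No member was called in GV oocytes (0.0315% of all genes were), none in MII oocytes (0.042%) and none for the season difference in the GV to MII change (0.21%), by the same limma call rule. At an unadjusted p under 0.05 alone there were 2 members in GV (2.35%, against 1.55% of all genes), 3 in MII (3.53%, against 2.11%) and 2 for the season difference (2.35%, against 1.8%), and every adjusted p was close to 1. Without the 3 libraries that stood apart these were 5, 1 and 5 members, and 0 of all genes passed the adjusted threshold. The share of all genes at an unadjusted p was not taken for that refit. No member had seasons that did not overlap, as did 0.178% of all genes in GV and in MII. The 95% interval of the season difference lay within 1 on the log2 scale for 63 of 85 members in GV and for 69 in MII. Among the 32 members with at least 1 FPKM it did so for 13 and 18, and for the rest of these the interval reached a fold of 2. The median log2 difference of the members was 0.02 in GV, beside 0.01 over all genes, and -0.0007 in MII, beside -0.01.

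**Figure D5:**
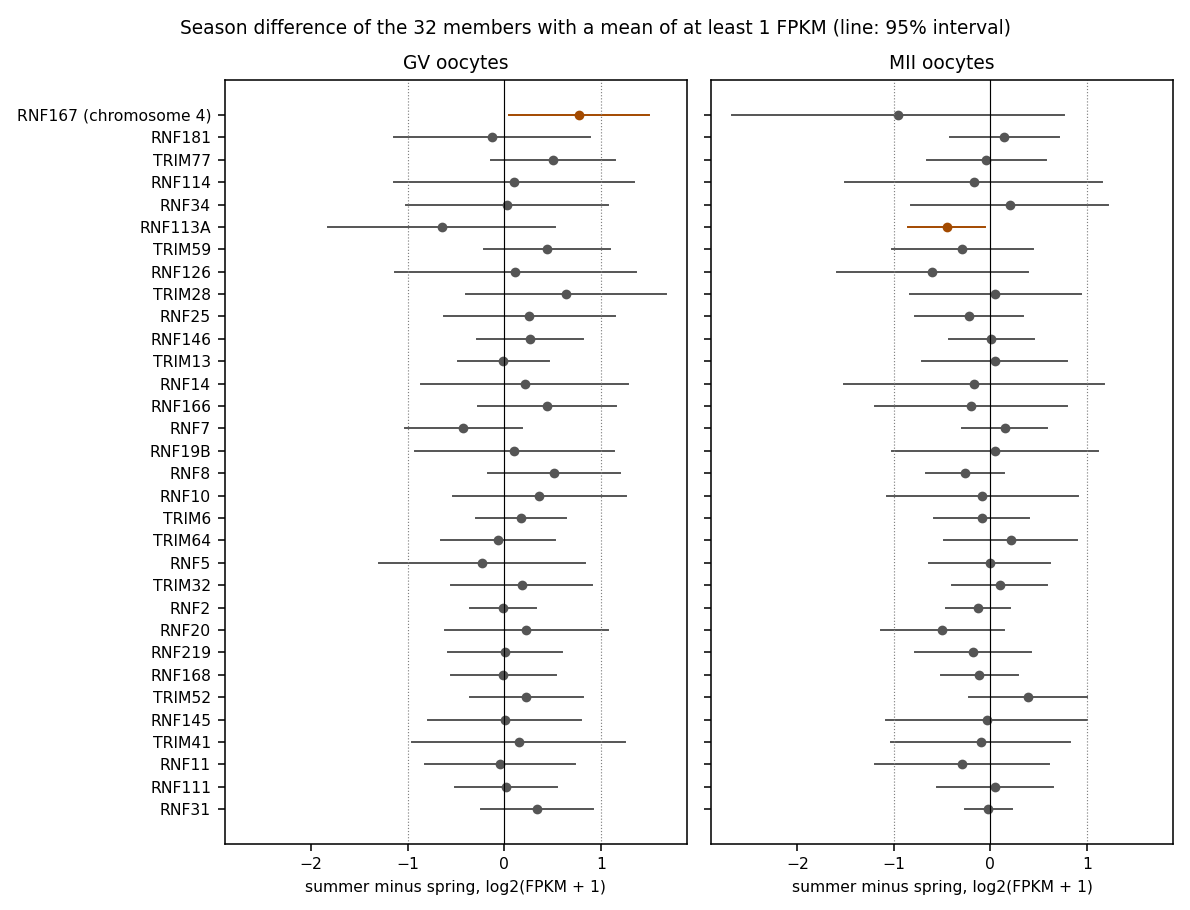
Summer minus spring difference in log2(FPKM + 1) of the 32 members with a mean of at least 1 FPKM, in GV and in MII oocytes, with 95% intervals as lines, dotted lines at a doubling and a halving, and colour for an unadjusted limma p under 0.05. All but RNF167 in GV and RNF113A in MII have intervals that include 0.

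In GV oocytes these 2 members were RNF216, a ligase of the RING-between-RING type, and the chromosome 4 entry of RNF167. RNF216 was at 0.0244, 0.0543 and 0.0923 FPKM in spring GV and 0.0751, 0.104 and 0.266 in summer GV (log2 difference 0.09, SE 0.04, exact permutation p = 0.00649). In MII oocytes RNF113A was lower in summer, at 7.08, 8.35 and 13.2 FPKM against 10.1, 12.4 and 18.1 in spring (log2 difference -0.45, SE 0.19, exact permutation p = 0.0303). RNF214 was at 0.146, 0.239 and 0.406 FPKM in summer MII and 0.280, 0.386 and 0.574 in spring MII (exact permutation p = 0.0195). TRIM21, the cytosolic antibody receptor, was higher in summer MII, at 0.0414, 0.114 and 0.223 FPKM against 0.01, 0.0595 and 0.0951 (exact permutation p = 0.0606). The groups overlapped in all 5, and the adjusted limma p was 1 in each.

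RNF214 and RNF8 had the season differences in the GV to MII change. RNF214 rose in spring, from 0.106, 0.122 and 0.245 to 0.280, 0.386 and 0.574 FPKM, by 0.29 on the log2 scale (SE 0.07, limma adjusted p = 0.00711), with no overlap. In summer it went from 0.131, 0.212 and 0.518 to 0.146, 0.239 and 0.406 FPKM (log2 change 0.01, SE 0.07). The difference was -0.28 on the log2 scale (SE 0.10, adjusted p = 1). RNF8, which starts the ubiquitin signal at DNA breaks, was at 2.0, 2.73 and 6.58 FPKM in spring GV and 2.42, 2.65 and 4.05 in spring MII, and at 3.62, 3.78 and 12.9 in summer GV and 1.5, 2.35 and 3.70 in summer MII. Its difference was -0.77 (SE 0.37, adjusted p = 1), and it was -0.52 with an unadjusted p over 0.05 without summer GV 2, the library with 12.9 FPKM. Its unadjusted p was above 0.05 in 17 of 33 refits, the one without spring GV 3 among them. RNF168, which acts after RNF8 at breaks, had a mean of 1.46 FPKM and no call.

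RNF167, a ligase of endosomes and lysosomes, shows what a pair of loci does to such values. The table lists it on chromosome 4, at 59913298 to 59913962 (665 bp), and on chromosome 19, at 27085162 to 27087525 (2364 bp). The chromosome 4 entry held a value in 23 libraries, from 9.59 FPKM upward, and the chromosome 19 entry was at 0.01 in all of these. In summer MII 4 the chromosome 4 entry was at 0.01 and the chromosome 19 entry at 7.40 FPKM. No library had both. From which locus the reads came cannot be told apart, and both entries are uncertain. The log2 changes of the chromosome 4 entry from GV to MII, 0.84 in spring (limma adjusted p = 0.0620) and -0.90 in summer (adjusted p = 0.414), differ by -1.74, and the summer value rests on summer MII 4.

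Genes that work with the members were measured beside them. A list of RING finger genes with other symbols also held some relatives without a RING, such as U-box and B-box proteins. Of its 105 tested genes, 10 rose and 9 fell in spring at the adjusted threshold, and 6 rose and 15 fell in summer. These are 9.52% and 8.57% in spring, beside 9.45% and 14.7% of all genes, and 5.71% and 14.3% in summer, beside 7.67% and 23.1%, with median log2 changes of 0.06 and 0.04. Of 26 tested E1 and E2 enzymes, 2 rose and 5 fell in spring and 2 rose and 6 fell in summer, or 7.69% and 19.2%, then 7.69% and 23.1%. UBE2L3, the E2 enzyme that serves ligases of the RING-between-RING type such as RNF31, had a log2 change of -1.56 in spring (limma adjusted p = 0.000697) and -2.20 in summer (adjusted p = 9.17e-05) at a mean of 25.7 FPKM. UBE2L6 fell by 1.46 and 1.19 on the log2 scale (adjusted p = 0.00180 and 0.00846), and UBE2D1 and UBE2G1 rose by 0.45 to 0.58 in both seasons. No gene of either list was called between seasons by limma, where 3 and 1 had an unadjusted p under 0.05 in GV and 0 and 0 in MII.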

How the data were processed

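RNA-seq was measured in 24 libraries of bovine oocytes, 6 in each of 4 groups taken from the labels. The authors captured and amplified mRNA with the Smart-seq2 v4 kit, aligned reads to UMD3.1.1 with STAR 2.5.3a, and deposited 1 FPKM value per gene and library. The submitters' processing notes name UMD3.1 and Partek. All libraries sum to between 86768.1 and 86768.2 FPKM and no value is under 0.01, which points to a common scaling and an offset of 0.01 that the sources used here do not name. No counts per gene are listed, so depth was estimated as a ratio from the values and no counting interval is given.

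The 9526 genes over 0.1 FPKM in at least 1 library entered limma 3.58.1 (R 4.3.3) as log2(FPKM + 1), with a mean-variance trend. Each fit held the pair of groups it compares, and all 4 for the season difference. A call needs an unadjusted p under 0.05 and a fold over 2, the thresholds of the methods. Benjamini-Hochberg adjustment ran over all genes tested. Exact permutation tests used all assignments of 6 and 6 libraries. The steps were tested on simulated data. P-values measure the spread between these libraries. The methods describe fewer cows than libraries, with the same cows aspirated in spring and in summer, so cows recur between groups. No label names the cow of a library, so this pairing could not enter the fits or the permutation tests.

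Members and lists were chosen with earlier results of these data known. Named genes are the called members, the members at an unadjusted p under 0.05 in the season comparisons, the 10 with the highest mean, and 3 listed genes with the smallest p in each direction; further members are named after their values were seen. All 96 entries matched RefSeq genes, 95 under the same symbol. Alternatives are another pseudocount, filter, scaling, fold, threshold, moderation or set of groups in the fit, a replicate block, and leaving out libraries. No sequence of a member is given, since no sequence of this build was used here. The wet-lab and climate data of the study were not analysed here.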

Additional observations from a re-analysis of the deposited data

Results flagged for a closer look

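Among 76 groups of 6 libraries, made of the named members and of the sum over all members, 18 held a library whose gap to the nearest other, on the log2(FPKM + 1) scale for genes, exceeded Dixon's 95% critical share of the range of the group. Chance flags about 1 in 20 groups. Summer GV 2 was the library in RNF146 (7.23 FPKM), RNF7 (5.03), RNF216 (0.266), RNF214 (0.518), RNF8 (12.9), RNF114 (48.3) and TRIM28 (37.8), each time as the highest, in RNF181 (2.63) as the lowest, and in the sum over all members (349). Spring GV 6 was the highest in RNF10 (4.73 FPKM), RNF34 (34.9), RNF214 (0.245) and RNF114 (34.5). Spring MII 6 was the lowest in RNF181 (11.7 FPKM) and the highest in the sum over all members (413). The others were summer MII 2 in RNF146 (15.0 FPKM), summer MII 6 in RNF216 (0.41) and summer MII 4 in the chromosome 4 entry of RNF167 (0.01). Spring GV 6, summer GV 2 and spring MII 6 have relative depths of 0.0567, 0.395 and 0.149, and the part of depth was not tested. RNF214 and RNF8 differed between seasons in their change from GV to MII at an unadjusted p under 0.05 (log2 differences -0.28 and -0.77), but not after adjustment over all genes.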

How the results depend on the processing

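Over the 17 tested changes chosen by the naming rule, 392 refits were made: 326 stayed on their side of an unadjusted p of 0.05, 66 lost it and 0 reversed. All 17 were chosen at an unadjusted limma p under 0.05 in these same data. In the summer stage comparison the refit without the 3 libraries repeats the one without summer GV 2. In the season comparison of MII it repeats the one without spring MII 6. The summer change of RNF214, 0.01, is near 0 and turned sign in 4 refits (-0.029 to 0.065 without 1 library). Counts of calls moved more. For MII against GV in spring (4 higher, 0 lower), a pseudocount of 0.1 gave 11 and 5, no pseudocount 16 and 11, quantile normalization 8 higher, median-of-ratios scaling 2 lower, the ratio of group means 12 and 9, an adjusted p alone 10 and 5, an unadjusted p at any fold 15 and 9, and leaving out 1 library 3 to 9 and 0 to 1. For summer (4 higher, 2 lower) the same gave 11 and 7, 13 and 15, 7 and 0 with quantile normalization, 4 and 2 with median-of-ratios scaling, 12 and 12 with the ratio of group means, 11 and 9 at an adjusted p, 15 and 12 at an unadjusted p, and 2 to 6 and 2 to 3 without 1 library; a pseudocount of 1 holds back genes under 1 FPKM by construction. Calls over all 9526 genes moved too, from 1126 in spring and 1092 in summer. A pseudocount of 0.1 gave 2628 and 2521 genes, no pseudocount 3536 and 3592, and the ratio of group means 3216 and 3331. Quantile normalization gave 1205 and 1166, and median-of-ratios scaling 1149 and 1093. Between seasons (0 members in each), no pseudocount gave 2 members in GV, 1 in MII and 4 for the season difference. Of all genes it gave 116, 102 and 191. The ratio of group means gave 1 member in GV and 1 in MII (56 and 70 genes). An unadjusted p at any fold gave 2, 3 and 2 members, and leaving out 1 library 0 to 0, 0 to 0 and 0 to 1. The replicate block gave 4 and 0 in spring, 4 and 2 in summer and 1 for the season difference; same-numbered libraries did not all deviate together (correlations of -0.169 to 0.535 for the stages in spring, -0.279 to 0.649 in summer, -0.322 to 0.439 for the seasons in GV and -0.441 to 0.764 in MII, where 4 of 6 correlated best with their own number), so the numbers were not taken as pairs. Shallow libraries, with no counts given, limit what can be said of members near 0.1 FPKM. The cause of these moves was otherwise not tested.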

Other observations

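Other genes of the RING finger list moved in both directions between the stages. In spring PHRF1 had the smallest p among those that fell (log2 change -1.13, SE 0.21, limma adjusted p = 0.00270), and CNOT4, the RING subunit of the CCR4-NOT deadenylase complex, the smallest among those that rose (0.60, SE 0.11, adjusted p = 0.00257). In summer RNFT1, a membrane ligase, rose by 1.30 (SE 0.23, adjusted p = 0.00103), while PPIL2, a U-box protein, and MARCH2 fell by 0.77 and 0.85 on the log2 scale (adjusted p = 0.000104 and 0.000193). BSPRY, a listed B-box and SPRY domain protein without a RING, fell in both seasons, by 0.81 and 0.89. BRCA1, the RING ligase of homologous recombination, rose in spring by 0.35 (adjusted p = 0.00786). UBE2D3, an E2 enzyme that many RING ligases use, had a mean of 272 FPKM and a summer log2 change of 0.47 (adjusted p = 0.114). Several members are neighbours in the table: TRIM17 and TRIM11 on chromosome 7 are 921 bp apart, TRIM41 and TRIM52 13974 bp, and RNF138 and RNF125 on chromosome 24 24570 bp, with mean levels of 0.0239 and 0.185, 1.25 and 1.42, and 0.171 and 0.0261 FPKM.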
